A study of Mus musculus with 26 samples.

Results

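The late stage of a chemical reprogramming course, days 30, 36 and 40, was compared with the stage before it, days 12, 18 and 22, in which the cells carry genes of extraembryonic endoderm. The 6 libraries were taken by their labelled day and treatment from the 26 mouse libraries of the series, and each day has 1 library of total RNA. In this course the cells, which started on day 0 as mouse embryonic fibroblasts, are labelled as having had every chemical, and the labels give no strain, genotype, age or list of the chemicals present on each day. The early days (12, 18 and 22) and the late days (30, 36 and 40) therefore serve as 3 repeats each. A parallel course without BrdU (bromodeoxyuridine, a thymidine analogue that is incorporated into DNA) has 1 library on each of the same days, and 6 libraries are labelled as chemically induced pluripotent stem cells (CiPSC). Whether any libraries came from separate cultures or were sequenced together is not given in the sources used here, so a batch of the CiPSC libraries cannot be told apart from their group.

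Pluripotency in mouse cells rests on a small network of transcription factors, among them Pou5f1, Nanog and Sox2, that maintain one another's expression. Extraembryonic endoderm, the tissue that lines the yolk sac, is run by another network around Gata4, Gata6, Sox17 and Foxa2, and secretes plasma proteins and basement membrane. Chemical reprogramming of fibroblasts is known to pass through cells with that endoderm program before pluripotent colonies appear.

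Values are scores that the authors normalized to 1 common distribution. The 6 libraries summed to between 4159573 and 4161881, each had a median score of 77, and exactly 10 genes in each library held the ceiling of 21988. Sequencing depth is therefore unknown, and no counting interval can be given. Changes are differences of log2(score + 1) from limma, with the moderated standard error (SE), over 3 days against 3. Of 16211 genes tested, 2367 (14.6%) passed an adjusted p of 0.05, of which 1104 (6.81%) rose and 1263 (7.79%) fell. The median change over all genes tested was 0.01. Leaving out each day in turn left 320 genes (1.97%) called as rising and 416 (2.57%) as falling whichever day was missing. Without day 18, 36 or 40 the total was 892, 1017 or 1019 genes. The spread among days of 1 course holds change with time as well as noise, and the labels do not show them to be independent cultures. In bulk RNA, fewer cells of a type and less RNA per cell cannot be told apart.

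The step from day 22 to day 30 had the most genes changed at least 4-fold, and at 8 days it was also the longest. Between those libraries 1542 genes differed by at least 4-fold in score + 1, 671 of them higher on day 30 and 871 lower. The steps from day 12 to 18 and from day 18 to 22 had 815 and 637 such genes, and those from day 30 to 36 and from day 36 to 40 had 749 and 525. Single libraries allow no test of these counts, and the intervals differ in length.

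Nanog, a homeodomain factor of the pluripotency network, rose. Its gene lies at chr6:122707489-122714633 (mm10, plus strand). Its score was 5, 4 and 2 on days 12, 18 and 22, then 32, 422 and 771 on days 30, 36 and 40. Every late day stood above every early day, and days 36 and 40 stood far above day 30. The change was 5.62 (SE 1.07, n = 3 days against 3, limma adjusted p = 0.0148), and the adjusted p was 0.0613 to 0.0680 without day 18, 36 or 40. In CiPSC Nanog stood at 5556 ± 2309 (SD, n = 6), above every late day.

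Sox2, the partner of Pou5f1 on many enhancers (chr3:34650405-34652461), rose from a score of 1 on each early day to 11, 371 and 660 on days 30, 36 and 40. On the log2 scale day 30 again lay nearer to the early days than to days 36 and 40, and no late day overlapped with the early days. Its change of 6.16 (SE 1.35, adjusted p = 0.0238) was lost without day 12, 18, 22, 36 or 40, with an adjusted p of up to 0.0960. CiPSC had 1931 ± 236 (SD, n = 6).

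Zfp42 (Rex1), a zinc finger gene used as a reporter of naive pluripotency, did not pass the test. It stood at 10, 18 and 56 on the early days and at 48, 114 and 206 on the late days, so day 30 lay below day 22 and the groups overlapped. The change was 2.20 (SE 0.71, adjusted p = 0.0789), and it passed without day 22 (adjusted p = 0.0365) and in the fit that pools the spread over both courses (adjusted p = 0.0288). CiPSC had 1272 ± 256 (SD, n = 6). Cdh1, the E-cadherin of epithelial and pluripotent cells (chr8:106603351-106670246), rose from 255, 716 and 806 to 2038, 2634 and 2038. All 3 late days were near the CiPSC mean of 2073 ± 858 (SD, n = 6). Its change was 2.07 (SE 0.41, adjusted p = 0.0176), and the adjusted p was 0.0527 to 0.0754 without day 18, 30, 36 or 40. Of the 4 markers of the pluripotent state, 3 thus passed, and at day 40 Cdh1 alone was at its CiPSC level.

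The promoters of Nanog and Zfp42 are shown because both genes carry, just upstream of their start, the letters read by the pluripotency factors. The sequences are the 250 bases before the RefSeq start (GRCm38.p6, read 5′ to 3′ on the gene's strand, 1 of 2 listed starts for Nanog, the single listed start for Zfp42). For Nanog they cover chr6:122707239-122707488 on the plus strand, and for Zfp42 chr8:43307010-43307259 on the minus strand. Capitals mark ATGCAAA, a shortened form of the Pou5f1 octamer that is called the octamer here. In Nanog they also mark the Sox motif CATTGT. Each was searched on both strands. In Nanog the matches begin 75 and 67 bases before the start, 1 base apart, and in Zfp42 the octamer begins 185 bases before it.
Nanog: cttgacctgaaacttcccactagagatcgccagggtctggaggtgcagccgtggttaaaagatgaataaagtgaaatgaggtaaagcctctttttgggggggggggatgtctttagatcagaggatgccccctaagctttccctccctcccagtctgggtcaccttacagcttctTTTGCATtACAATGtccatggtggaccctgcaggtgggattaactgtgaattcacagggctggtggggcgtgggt
Zfp42: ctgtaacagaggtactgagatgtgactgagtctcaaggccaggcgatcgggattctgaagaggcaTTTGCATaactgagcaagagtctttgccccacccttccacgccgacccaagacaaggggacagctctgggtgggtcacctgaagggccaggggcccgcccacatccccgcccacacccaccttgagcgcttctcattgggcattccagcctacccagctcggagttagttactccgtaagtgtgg
Of 32851 RefSeq windows of this length, 4.12% hold the octamer and 10.7% the Sox motif, so a match is a description and no measure of binding.

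**Figure D1:**
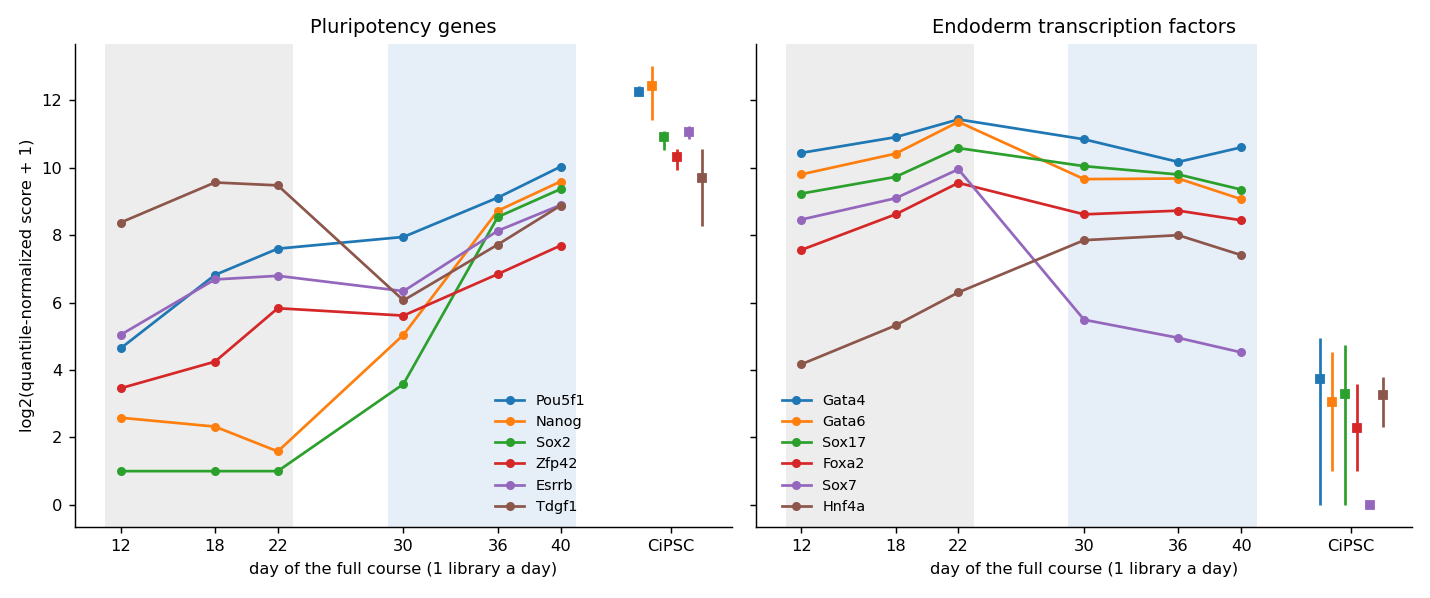
Scores of 6 pluripotency genes (left) and 6 endoderm transcription factors (right), as log2(score + 1), by day of the full course with 1 library a day; grey and blue bands mark the early and late days. Squares are the log2 of the mean score + 1 of 6 CiPSC libraries and the bars their range. Nanog and Sox2 leave the floor only after day 22, while Gata4, Sox17 and Foxa2 on day 40 stay far above CiPSC.

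Among 26 tested pluripotency transcription factors, 3 rose (Nanog, Sox2 and Klf2) and 1 fell (Tbx3), with a median change of 1.56. That is 11.5% and 3.85%, against 6.81% and 7.79% of all genes. Without day 18, 36 or 40 only 1 member was called, and without day 30 there were 11. The pattern over days was a dip followed by a climb: 19 of the 26 stood lower on day 30 than on day 22, 25 stood higher on day 40 than on day 30, and 11 were lower on day 30 than on day 22 but above it on day 40. Over all 16211 genes, 7535 stood lower on day 30 than on day 22 and 6967 higher on day 40 than on day 30. These are comparisons of single libraries.

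Pou5f1 (Oct4) was already at 24, 112 and 193 on the early days and stood at 246, 553 and 1046 on the late days, without overlap. Its change of 2.68 (SE 0.79) had an adjusted p of 0.0627 and was not called. Klf2, a Krüppel-like factor of naive cells, rose from 44, 6 and 74 to 117, 549 and 606 (adjusted p = 0.0463, and up to 0.168 without day 12, 18, 36 or 40). Esrrb, an orphan nuclear receptor of the naive network, had 32, 102 and 110 early and 80, 279 and 475 late (adjusted p = 0.173). Utf1, a chromatin factor of pluripotent cells, had 1, 1 and 4 early and 3, 114 and 181 late (adjusted p = 0.0911). Both day 30 values lay within the early range, as for Zfp42.

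Tbx3, a T-box factor also active in endoderm, fell from 1345, 934 and 926 to 328, 392 and 222 (change -1.78, SE 0.25, adjusted p = 0.00537), and its call held whichever day was left out. Klf4 and Sall4, which the early cells already carried, did not pass. Klf4 had 2033, 2101 and 6078 early and 2164, 3414 and 2628 late, and Sall4 had 228, 424 and 760 early and 480, 352 and 488 late. The CiPSC mean exceeded day 40 for 24 of the 26 factors, against 8795 of all 16211 genes.

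Of 31 other tested genes of pluripotent cells, 6 rose (19.4%, against 6.81% of all genes) and 2 fell (Spp1 and Gjb5, 6.45% against 7.79%). The median change was 1.0. Without day 18, 36 or 40 the number called was 3, 2 or 4. Manba, a lysosomal mannosidase, rose from 96, 189 and 164 to 462, 396 and 404 (change 1.54, SE 0.26, adjusted p = 0.00954). Spp1, the secreted phosphoprotein osteopontin, fell from 6884, 21988 and 21988 to 852, 852 and 1588 (adjusted p = 0.00388). Days 18 and 22 were at the ceiling, so its change of -3.83 may be understated. Chosen after their values were seen, Tdgf1 (the Nodal coreceptor Cripto) and Tdh (threonine dehydrogenase) showed the dip at day 30 most plainly. Tdgf1 went from 712 at day 22 to 66 at day 30, and day 40 had 470. Tdh had 462, 55 and 284 on those days. Neither passed the test.

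The primed epiblast list, genes of the state after implantation, had 3 risers of 14 tested (21.4%, against 6.81% of all genes). All 3 are members of the Nodal pathway. Lefty2, a secreted Nodal inhibitor, rose from 1, 3 and 2 to 10, 92 and 110 (adjusted p = 0.0225), and CiPSC had 958 ± 213 (SD, n = 6). Lefty1 rose from 2, 4 and 1 to 7, 50 and 26 (adjusted p = 0.0415), and Nodal from 1, 0 and 1 to 3, 30 and 21 (adjusted p = 0.0437). Each of these 3 calls was lost without day 12, 18, 22, 36 or 40, with an adjusted p of up to 0.154. The call of Nodal was also lost in limma with a pseudocount of 5 (adjusted p = 0.0598). In the fit without an intensity trend, Nodal (adjusted p = 0.0592) and Lefty1 (adjusted p = 0.0586) did not pass. The list had 1 called member without day 12, 18 or 22, 7 without day 30 and 0 without day 36 or 40. Sox4 was the 1 member that fell, from 1088, 728 and 917 to 488, 504 and 390 (adjusted p = 0.0174, not called without day 36 or 40).

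The endoderm program did not fall as a block. Of 20 tested endoderm transcription factors, 3 rose (Foxa3 and Hnf4a among them), 5 fell (Sox7, Cebpa, Hhex, Nr2f2 and Isl1) and 12 did not pass. Risers were 15% and fallers 25%, against 6.81% and 7.79% of all genes, and the median change was -0.47. The number called was 2, 4, 2 or 3 without day 18, 30, 36 or 40. On day 30, 14 of the 20 factors stood lower than on day 22, and on day 40 only 6 stood higher than on day 22. Over all 16211 genes these counts were 7535 and 7708. Gata4, a zinc finger regulator at the head of the endoderm network (chr14:63198922-63271692), had 1390, 1920 and 2768 on the early days and 1838, 1154 and 1557 on the late days. Its groups overlapped, and the change of -0.39 (SE 0.29) had an adjusted p of 0.407. Gata6 had 893, 1368 and 2631 early and 810, 820 and 536 late (change -1.06, adjusted p = 0.111). Every late day of Gata6 lay below every early day, but the change was not called.

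Sox17, an SRY-box factor of endoderm, had 601, 848 and 1534 early and 1058, 891 and 653 late (adjusted p = 0.861). Foxa2, a forkhead factor of endoderm, had 188, 392 and 750 early and 392, 423 and 347 late (adjusted p = 0.985). The CiPSC means of Gata4, Gata6, Sox17 and Foxa2 were 12.3, 7.33, 8.83 and 3.83. At day 40 these 4 regulators thus still stood far above CiPSC, beside the pluripotency genes. Each had climbed to its highest score on day 22, so its early mean lies below day 22. Every late day of each stood below its day 22 score.

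Sox7, an SRY-box factor of primitive and parietal endoderm, had a large fall that passed the test. It went from 352, 546 and 992 to 44, 30 and 22, and was at 0 in every CiPSC library. Its change was -4.18 (SE 0.40, adjusted p = 0.00143), and it was called whichever day was left out. Foxa3 and Hnf4a, regulators of hepatocyte and visceral endoderm genes, moved the other way. Foxa3 rose from 3, 3 and 4 to 68, 24 and 36 (change 3.21, SE 0.46, adjusted p = 0.00547). Hnf4a rose from 17, 39 and 78 to 230, 255 and 169 (change 2.49, SE 0.50, adjusted p = 0.0175), a call lost without day 18, 30, 36 or 40 (adjusted p up to 0.0763).

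Of 31 tested genes of visceral endoderm, the outer layer that secretes plasma proteins, 9 rose (29%, against 6.81% of all genes), 4 fell (12.9%, against 7.79%) and the median change was 0.48. Whichever day was left out, 4 rose and 3 fell. Pga5, a pepsinogen, rose from 84, 59 and 48 to 1046, 1136 and 750 (change 3.93, SE 0.25, adjusted p = 0.000669). Apob, the core protein of low-density lipoprotein, rose from 12, 10 and 22 to 132, 192 and 128 (adjusted p = 0.00182). Afp, the fetal plasma protein alpha-fetoprotein, rose from 34, 55 and 60 to 195, 239 and 168 (adjusted p = 0.00430). All 3 calls held whichever day was left out, and all 3 CiPSC means were 10.2 or lower. Fgb, the beta chain of fibrinogen, fell from 302, 316 and 356 to 93, 56 and 70 (adjusted p = 0.00165). Of the 9 risers, 8 had a CiPSC mean on the early side of the change. Without day 18, 8 members were called in place of 13.

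Igfbp1, which binds insulin-like growth factors outside the cell and is made by liver and endoderm, reached the highest late scores of this list's risers. Its gene lies at chr11:7197782-7202546. It had 4, 82 and 167 early and 4962, 2277 and 3630 late, and was listed at 0 in all 6 CiPSC libraries. The change was 6.39 (SE 1.16, adjusted p = 0.0126), with an adjusted p of 0.0516 and 0.0637 without day 30 and day 40.

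Parietal endoderm genes, which build the basement membrane facing the placenta, showed 2 rises and 7 falls among 28 tested, with a median change of -0.16. These were 7.14% and 25%, against 6.81% and 7.79% of all genes. Col4a1 and Col4a2 were at the ceiling from day 22 on and cannot show a further rise. Thbd (thrombomodulin) fell from 848, 1078 and 982 to 371, 346 and 260 (change -1.58, SE 0.18, adjusted p = 0.00277). Nid1 and Nid2, the paired nidogens of basement membrane, went opposite ways. Nid1 fell from 4966, 6868 and 6868 to 2550, 2280 and 2550 (adjusted p = 0.00688), and Nid2 rose from 874, 1080 and 1212 to 2769, 2218 and 2424 (adjusted p = 0.00622). The fall of Nid1 did not pass in the fit that pools the spread over both courses (adjusted p = 0.0670). Plod2, a collagen lysyl hydroxylase, rose from 450, 1068 and 1580 to 8303, 8303 and 21988, the last value at the ceiling (adjusted p = 0.00635).

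**Figure D2:**
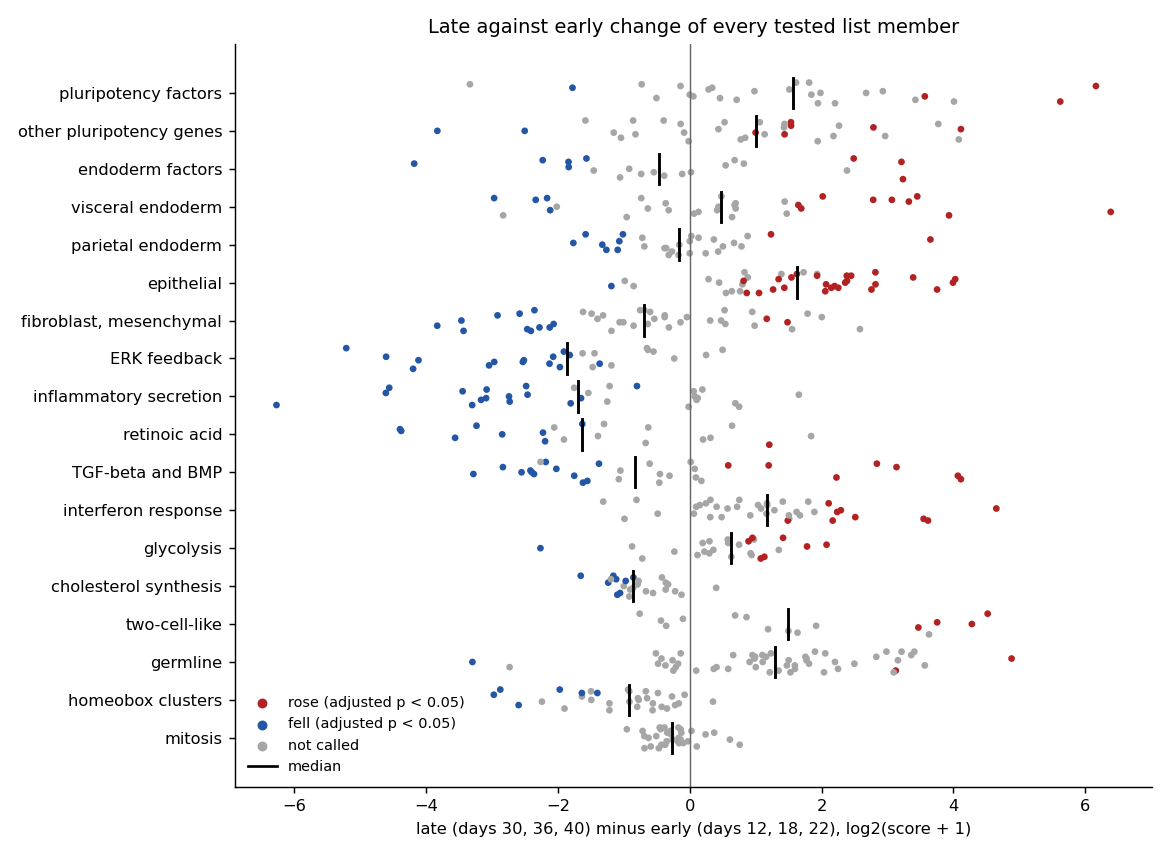
Each point is the late minus early change of 1 tested list member on the log2(score + 1) scale; red rose, blue fell and grey did not pass, and black lines are medians. Epithelial genes lie mostly right of 0 (median 1.63), ERK feedback and inflammatory secretion genes mostly left (medians -1.87 and -1.70), and endoderm factors spread to both sides.

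Epithelial genes rose together. Of 39 tested, 25 rose (64.1%, against 6.81% of all genes), 1 fell (Grhl1) and the median change was 1.63. Of the risers, 13 were called whichever day was left out, and without day 18, 36 or 40 the list had 17, 14 or 16 called members. Crb3, a polarity protein of the apical membrane (chr17:57059105-57065918), rose from 4, 6 and 9 to 140, 126 and 84 (change 4.03, SE 0.37, adjusted p = 0.00121). Tjp3, a scaffold of tight junctions (chr10:81273207-81291581), rose from 3, 9 and 10 to 116, 120 and 125 (change 4.0, SE 0.42, adjusted p = 0.00190). Jup, the plakoglobin of desmosomes and adherens junctions, rose from 142, 123 and 185 to 618, 848 and 681 (adjusted p = 0.00117). Pkp2, a desmosomal plakophilin, rose from 43, 33 and 46 to 136, 248 and 292 (adjusted p = 0.00424).

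For all 4 the late days stood clear of the early days and of day 22. CiPSC had 741 for Jup and 149 for Pkp2, close to the late days, and 19.5 for Crb3 and 59.2 for Tjp3, below every late day. Of the 25 risers, 11 had a CiPSC mean on the early side of the change, 9 between the groups and 5 at or past the late days.

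The promoters of Crb3 and Tjp3 are shown because the E-box CAGGTG, read by the repressors Snai1, Snai2, Zeb1 and Zeb2, stands in both. Each is the 250 bases before the RefSeq start (GRCm38.p6, 1 of 2 listed starts for each), chr17:57061951-57062200 on the plus strand for Crb3 and chr10:81291582-81291831 on the minus strand for Tjp3. Capitals mark the E-box on either strand, with 3 matches 118, 63 and 7 bases before the start in Crb3 and 1 match 108 bases before it in Tjp3.
Crb3: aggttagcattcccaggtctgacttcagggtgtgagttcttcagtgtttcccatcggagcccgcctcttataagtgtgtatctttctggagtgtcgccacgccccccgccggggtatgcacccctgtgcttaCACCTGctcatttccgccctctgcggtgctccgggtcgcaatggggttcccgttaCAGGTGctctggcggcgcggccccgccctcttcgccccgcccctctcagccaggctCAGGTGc
Tjp3: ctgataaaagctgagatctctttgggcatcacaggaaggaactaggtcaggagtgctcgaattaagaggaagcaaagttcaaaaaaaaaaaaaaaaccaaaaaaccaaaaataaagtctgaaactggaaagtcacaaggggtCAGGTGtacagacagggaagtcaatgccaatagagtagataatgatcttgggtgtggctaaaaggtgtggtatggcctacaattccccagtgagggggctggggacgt
Of all windows, 17.2% hold it. Only 73.8% of the genes tested have a RefSeq window, so no share of motif matches is given for genes that rose or fell.

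Among 41 tested fibroblast and mesenchymal genes, 11 fell (26.8%, against 7.79% of all genes) and 2 rose (Fbln2 and Mfap5, 4.88% against 6.81%). The median change was -0.69. Of the falls, 6 were called whichever day was left out, and without day 18, 30, 36 or 40 the list had 7, 8, 7 or 7 called members. Twist1 and Twist2, basic helix-loop-helix factors of mesenchyme, fell together. Twist1 went from 893, 868 and 434 to 50, 80 and 64 (change -3.43, SE 0.32, adjusted p = 0.00121). Twist2 went from 308, 196 and 243 to 24, 20 and 20 (change -3.47, SE 0.24, adjusted p = 0.000669). Mmp2, a secreted gelatinase, fell from 4512, 4216 and 2556 to 791, 671 and 607 (adjusted p = 0.00175). Cd34, a surface sialomucin, fell from 161, 178 and 146 to 30, 30 and 32 (adjusted p = 0.000917).

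Other fibroblast genes did not follow. Fbln2, a matrix fibulin, rose from 230, 204 and 179 to 530, 612 and 572 (adjusted p = 0.00182). Chosen after its values were seen, the collagen gene Col1a1 had 2280, 1368 and 886 early and 2331, 2762 and 3088 late and was not called. The summed score of the list was 105292, 56104 and 24825 on the early days and 39408, 41478 and 43157 on the late days, so it was lowest on day 22. Of 13 tested smooth muscle genes, 3 rose (23.1%, against 6.81% of all genes), 1 fell (Des, 7.69% against 7.79%) and 9 did not pass. Tpm1 (tropomyosin) rose from 2038, 1275 and 1229 to 3850, 4216 and 3638 (adjusted p = 0.00882). Tagln (transgelin) rose from 50, 8 and 14 to 112, 120 and 139 (adjusted p = 0.0227, up to 0.0968 without day 18, 22, 30, 36 or 40). Without day 18 the smooth muscle list had 1 called member in place of 4, and without day 22, 30, 36 or 40 it had 2. The part of remaining or changed fibroblasts in these results was not tested.

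Genes that fibroblast growth factor and the kinase ERK switch on, and which feed back on that pathway, fell. Of 24 tested, 14 fell (58.3%, against 7.79% of all genes), 0 rose, and the median change was -1.87. All 24 stood lower on day 30 than on day 22, by a median of 2.57 on the log2 scale, and 18 stood higher on day 40 than on day 30. Leaving out day 12, 18, 22 or 40 left 9, 7, 9 or 6 called members, and 6 were called whichever day was missing.

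Dusp6, a phosphatase that inactivates ERK (chr10:99263231-99267489), fell from 737, 406 and 486 to 54, 106 and 51 (change -2.97, SE 0.34, adjusted p = 0.00249). Spry4, a Sprouty inhibitor of receptor signalling, fell from 175, 120 and 142 to 2, 13 and 4 (change -4.61, SE 0.55, adjusted p = 0.00309). Spred3, a Sprouty-related inhibitor, fell from 64, 86 and 42 to 8, 7 and 5 (adjusted p = 0.00349), and Ier3, an immediate early gene, from 1288, 1048 and 1016 to 123, 191 and 307 (adjusted p = 0.00355). The late days lay below the early days for each. CiPSC had 27.3 for Dusp6 and 4.83 for Spry4. Fosl1, an AP-1 subunit induced by ERK, fell from 618, 270 and 401 to 2, 48 and 8 (change -5.21, SE 0.91, adjusted p = 0.0110, and 0.0588 without day 40).

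Of 28 inflammatory secretion genes, 15 fell (53.6%, against 7.79% of all genes), 0 rose and the median change was -1.70. Of these, 7 fell whichever day was left out, and without day 18 or 40 the list had 8 or 9 called members. Mmp9, a gelatinase, fell from 313, 360 and 121 to 1, 2 and 4 (change -6.27, SE 0.52, adjusted p = 0.000917). Mmp3, the stromelysin of activated fibroblasts (chr9:7445822-7455975), fell from 208, 316 and 240 to 12, 6 and 11 (change -4.61, SE 0.32, adjusted p = 0.000669). Ccl7, a monocyte chemokine, fell from 375, 203 and 168 to 20, 36 and 26 (adjusted p = 0.00262). Igfbp3, a growth factor binding protein, fell from 2902, 2102 and 1046 to 386, 356 and 276 (adjusted p = 0.00588). All 15 fallers had a CiPSC mean at or below the nearest late day.

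Genes of retinoic acid metabolism and transport were next. Of 19 tested, 8 fell (42.1%, against 7.79% of all genes), 1 rose (Rara, 5.26% against 6.81%) and the median change was -1.63. Without day 18, 36 or 40 the list had 6 called members in place of 9. Cyp26b1, which degrades retinoic acid, fell from 2550, 2330 and 1650 to 184, 104 and 53 (change -4.40, SE 0.42, adjusted p = 0.00132). Crabp1, which binds it in the cytosol, fell from 1243, 752 and 550 to 58, 74 and 70 (adjusted p = 0.000917). Aldh1a3, which makes it, fell from 217, 202 and 115 to 30, 17 and 10 (adjusted p = 0.00429), and Lrat, which stores its precursor retinol, from 188, 51 and 32 to 2, 2 and 3 (adjusted p = 0.00610). Enzymes of synthesis and of breakdown thus both fell.

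Of 30 tested ligands, receptors, antagonists and targets of the transforming growth factor beta family, 7 rose, 12 fell and 11 did not pass. Risers made up 23.3% and fallers 40%, against 6.81% and 7.79% of all genes, and the median change was -0.83. Leaving out day 18, 36 or 40 left 8, 12 or 11 called members in place of 19. The ligands Inhbb and Bmp2 fell, Inhbb from 794, 596 and 492 to 75, 46 and 70 (adjusted p = 0.000787) and Bmp2 from 610, 820 and 1037 to 137, 201 and 136 (adjusted p = 0.00182). Id2, a target of bone morphogenetic protein signalling, fell from 729, 514 and 660 to 96, 156 and 106 (adjusted p = 0.00132), and the antagonist Grem1 from 306, 320 and 348 to 56, 102 and 86 (adjusted p = 0.00286). The risers included Nodal, Lefty1, Lefty2 and Gdf3 of the Nodal branch. Of 27 Wnt targets and feedback genes, 7 fell (25.9%, against 7.79% of all genes) and 2 rose (7.41%, against 6.81%). Notum, a secreted Wnt inhibitor, fell from 760, 432 and 239 to 64, 68 and 53 (adjusted p = 0.00511). Without day 18, 36 or 40 the Wnt list had 4, 5 or 3 called members in place of 9.

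**Figure D3:**
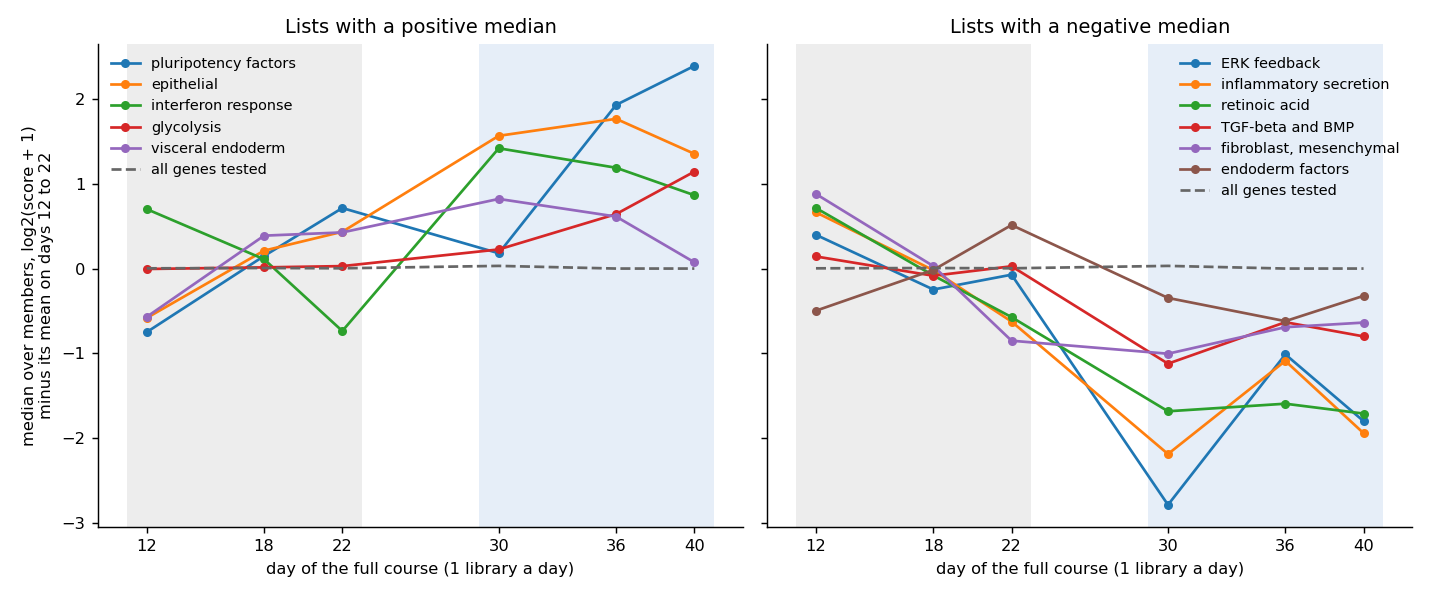
Median over tested list members of log2(score + 1) minus the gene's own mean on days 12 to 22, by day, with 1 library a day; the dashed line is the median over all 16211 genes. Pluripotency factors go from -0.75 on day 12 to 0.71 on day 22, stand at 0.18 on day 30 and reach 2.39 on day 40. Epithelial and interferon genes are at 1.56 and 1.42 by day 30, and ERK feedback genes are lowest on day 30 (-2.78).

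Of 38 tested interferon response genes, 9 rose (23.7%, against 6.81% of all genes), 0 fell and 29 did not pass. The median change was 1.17, and 6 rose whichever day was left out. Over the early days its summed score went down, at 9646, 7265 and 4987 on days 12, 18 and 22, and then stood at 13986, 11857 and 11145 on days 30, 36 and 40. The single day 6 library of this course was already high. Relative to each gene's own mean on days 12 to 22, the median over members was 1.48 on day 6 and 1.42 on day 30 (log2 scale). Without day 12, 20 members were called, and without day 18, 30 or 36 there were 6. Oas1a, an oligoadenylate synthetase that senses double-stranded RNA (chr5:120896256-120907521), rose from 13, 13 and 11 to 152, 174 and 140 (change 3.55, SE 0.23, adjusted p = 0.000669). Oas2 rose from 6, 4 and 2 to 53, 55 and 63 (adjusted p = 0.00233), and Oas1g from 0, 6 and 2 to 84, 56 and 68 (adjusted p = 0.00623). Isg20, an interferon-induced RNA nuclease, rose from 8, 20 and 14 to 64, 110 and 72 (adjusted p = 0.00772).

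Oas1a and Oas1g are near-identical copies, so reads could be split between them. In CiPSC Oas1a had 175 ± 77.6 (SD, n = 6), like the late days, while Isg20 and Oas2 had 23.8 and 24.5. The CiPSC mean exceeded day 40 for 1 of the 38 genes, against 8795 of all 16211 genes.

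The promoter of Oas1a is shown because it is the rise of this list with the smallest adjusted p. It covers chr5:120907526-120907775 on the minus strand (GRCm38.p6, 250 bases before the single RefSeq start). Capitals mark the interferon element, GAAA and again GAAA with any pair of bases between, searched on both strands, with 2 overlapping matches that begin 20 and 14 bases before the start.
Oas1a: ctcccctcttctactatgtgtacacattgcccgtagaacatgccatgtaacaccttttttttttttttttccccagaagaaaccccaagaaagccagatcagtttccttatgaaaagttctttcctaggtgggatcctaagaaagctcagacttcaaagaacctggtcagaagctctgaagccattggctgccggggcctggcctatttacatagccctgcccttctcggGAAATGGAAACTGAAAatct
The element is in 2.98% of all windows.

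Glycolysis genes rose in part, with 7 of 25 rising (28%, against 6.81% of all genes) and 1 falling (Pfkfb4, 4% against 7.79%). The median change was 0.63. Without day 18, 36 or 40 the list had 5, 5 or 3 called members. Aldoa (aldolase) rose from 1227, 1226 and 1241 to 2908, 2907 and 4208 (change 1.42, SE 0.19, adjusted p = 0.00454). Pdk1, a kinase that keeps pyruvate from the mitochondria, rose from 80, 120 and 106 to 242, 344 and 506 (adjusted p = 0.00893). Slc2a1, the glucose transporter GLUT1, rose from 776, 1364 and 2328 to 5522, 5522 and 6078 (adjusted p = 0.0114, and 0.0585 and 0.0582 without day 18 and day 40). CiPSC had 1225 for Slc2a1 and 96.2 for Pdk1, below every late day. The respiratory chain list had 1 rise and 1 fall among 50 tested (2% each, against 6.81% and 7.79% of all genes), and 0 called members without day 12, 18, 30, 36 or 40.

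Cholesterol synthesis showed 8 falls (33.3%, against 7.79% of all genes) and 0 rises among 24 tested, with a median change of -0.86. Sc5d, a sterol desaturase, fell from 350, 314 and 326 to 190, 163 and 152 (change -0.97, SE 0.15, adjusted p = 0.00791). It was the 1 member called whichever day was left out, and 2 to 6 members were called with a day missing. The mitosis list had 0 called members among 34 by limma (3 without day 12), with 33 lower on day 30 than on day 22 and all 34 higher on day 40 than on day 30. Its CiPSC means were above day 40 for all 34, against 8795 of all 16211 genes. The replication list had 2 falls among 38 (Gins3 and Rrm1, 5.26% against 7.79% of all genes) and 0 rises. Both calls were lost without day 18, 36 or 40. Of 28 tested genes of cyclin-dependent kinase inhibition and p53, 5 fell (17.9%, against 7.79% of all genes) and 0 rose. Of these falls, 1 was called whichever day was left out.

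Genes of the 2-cell embryo, the germline and the homeobox clusters were counted next. Of 15 tested 2-cell-like genes, 4 rose (26.7%, against 6.81% of all genes) and 0 fell, and without day 12, 18, 30, 36 or 40 only 2 were called. Zscan4d, a zinc finger gene of the 2-cell embryo, was listed at 0 on every early day and had 34, 13 and 14 late (adjusted p = 0.00351), and CiPSC had 109 ± 86.8 (SD, n = 6). Zscan4f rose from 1, 0 and 20 to 116, 62 and 68 (adjusted p = 0.0278, up to 0.0978 without day 12, 18, 30, 36 or 40). The Zscan4 genes are near-identical copies, so reads may be shared among them. Of 52 germline genes, 2 rose (3.85%) and 1 fell (Tdrd9, 1.92%), both shares below those of all genes (6.81% and 7.79%). The median change was 1.29. Without day 18, 36 or 40 this list had 1 called member, without day 22 it had 14 and without day 30 it had 7. Hormad1, a meiotic chromosome axis gene, rose from 0, 0 and 18 to 32, 90 and 162 (adjusted p = 0.0340, up to 0.134 without day 12, 18, 30, 36 or 40). Of 31 homeobox cluster genes, 6 fell (19.4%, against 7.79% of all genes) and 0 rose, with 0 calls without day 18 and 2 without day 22, 36 or 40. Hoxa5 fell from 80, 51 and 22 to 4, 4 and 7 (adjusted p = 0.0110, and 0.0616 without day 18).

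Enzymes that write or erase DNA methylation had 1 call among 18, the rise of the dioxygenase Tet3 (5.56%, against 6.81% of all genes). Of 42 Polycomb and histone methylation genes, 4 rose (9.52%) and 1 fell (2.38%). These shares are near or below the 6.81% and 7.79% of all genes. The call of Tet3 was lost without day 12, 18, 30, 36 or 40 (adjusted p up to 0.111), and the second list had 1, 1 or 2 called members without day 18, 36 or 40. Kdm1a (the demethylase LSD1) rose from 420, 423 and 390 to 672, 768 and 934 (change 0.93, SE 0.16, adjusted p = 0.0108) and stood at 1074 in CiPSC. Cbx7, a Polycomb subunit of pluripotent cells, rose from 22, 30 and 26 to 75, 191 and 269 (adjusted p = 0.0113, and 0.0513 and 0.0560 without day 18 and day 36). The methyltransferase Suv39h1 fell from 844, 628 and 410 to 244, 232 and 166 (adjusted p = 0.0144, up to 0.0703 without day 18, 36 or 40).

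Most of the genes with the 12 largest rises had no place in the lists. Aifm3, a mitochondrial oxidoreductase (chr16:17489611-17507485), rose from 0, 4 and 6 to 418, 626 and 620, while CiPSC had 3.17 ± 4.12 (SD, n = 6). Its change was 7.38 (SE 0.68, adjusted p = 0.00127). Mybpc3 and Alpk3, both known from heart muscle, rose as well, Mybpc3 from 0, 0 and 1 to 88, 100 and 36 (adjusted p = 0.00130) and Alpk3 from 3, 7 and 10 to 276, 173 and 248 (adjusted p = 0.000917). Slc9a3, an intestinal and renal sodium-proton exchanger, rose from 0, 1 and 0 to 39, 32 and 51 (adjusted p = 0.00130).

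Prl7a1, a placental prolactin gene, was listed at 0 on every early day and had 24, 86 and 117 late (adjusted p = 0.00182). Platr10, a long noncoding RNA associated with pluripotency, was also at 0 early and had 16, 66 and 74 late (adjusted p = 0.00277), with 387 ± 112 (SD, n = 6) in CiPSC. Gm10772, at 0 early, had 48, 24 and 45 late, and Nepn (nephrocan, a matrix proteoglycan), at 0 early, had 106, 34 and 9. Efhc2 rose from 0, 0 and 10 to 50, 72 and 100 (adjusted p = 0.0133, up to 0.0689 without day 18, 36 or 40). Igfbp1, Sox2 and Nanog complete the 12. Slc9a3, Prl7a1, Nepn and Igfbp1 were listed at 0 in all 6 CiPSC libraries.

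The 12 largest falls included genes known from mast cells, barrier epithelium and placenta. Mcpt1, a mast cell protease (chr14:56017971-56020384), had 326, 656 and 495 early and was listed at 0 on every late day (adjusted p = 0.000250). Csf2rb, the shared beta chain of the receptors for GM-CSF, interleukin 3 and interleukin 5 (chr15:78325752-78353847), fell from 346, 358 and 222 to 1, 1 and 0 (change -7.58, SE 0.40, adjusted p = 0.000379), and its near copy Csf2rb2 had 80, 84 and 34 early and was at 0 late. Slpi, a secreted protease inhibitor of mucosa, fell from 402, 660 and 547 to 10, 10 and 5 (change -5.87, SE 0.32, adjusted p = 0.000390). Ivl and Sprr2b, both building blocks of the skin's cornified envelope, fell from 136, 148 and 177 to 1, 4 and 0 (adjusted p = 0.00130) and from 394, 126 and 110 to 1, 3 and 3 (adjusted p = 0.00142).

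Prl2c2, a placental prolactin gene called proliferin, fell from 768, 909 and 1074 to 46, 0 and 0 (adjusted p = 0.0103, and 0.0574 and 0.0517 without day 18 and day 40). Prl7b1 had 56, 64 and 75 early and was at 0 late (adjusted p = 0.000669). Csn3 (kappa casein) fell from 518, 754 and 596 to 0, 28 and 14 (adjusted p = 0.0109, and 0.0620 without day 18). The neuropeptide gene Vip had 108, 77 and 44 early and Cntnap5b, a neurexin-like gene, 72, 64 and 55, both at 0 late. Mmp9 is the remaining gene of the 12. Chosen after values were seen, gene families were counted as well. Of 14 Sprr genes 12 fell, of 23 prolactin genes 9 fell and 1 rose, and of 18 matrix metalloproteinases 6 fell and 1 rose. Over all genes, 7.79% fell and 6.81% rose. Members of these families resemble one another in sequence, so reads may be shared between them.

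Markers of other cells moved with the late days in places. The macrophage list had 1 rise and 1 fall among 9 tested (11.1% each, against 6.81% and 7.79% of all genes). Cd14, a coreceptor for bacterial lipopolysaccharide, fell from 376, 291 and 147 to 7, 7 and 3 (adjusted p = 0.000917), and Csf1r, a receptor of macrophages and trophoblast, rose from 4, 6 and 7 to 34, 53 and 39 (adjusted p = 0.00464). Its summed score was 519 to 594 early and 215 to 227 late, and Ptprc, which marks all blood cells, was at 0 from day 22 on. The neural list had 0 calls among 9 by limma (1 without day 30), with sums of 312 to 580 early and 183 to 545 late. The endothelial list had 1 rise (Flt1) and 1 fall (Kdr) among 11, 9.09% each against 6.81% and 7.79% of all genes. Its summed score was 1323 to 2945 early and 5964 to 6194 late, most of it Flt1, which had 5530 on each late day. The call of Flt1 was lost without day 18, 30, 36 or 40 (adjusted p up to 0.105). Cdh5, the cadherin that defines endothelium, had 175, 168 and 141 early and 130, 154 and 136 late.

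The skeletal and cardiac muscle list had 1 rise (Myh7, from 1 on each early day to 28, 36 and 22) and 2 falls (Des and Myod1) among 11. These were 9.09% and 18.2%, against 6.81% and 7.79% of all genes. Sums of the list were 150 to 195 early and 174 to 286 late. Des was not called without day 18 (adjusted p = 0.0574). Trophoblast genes had 2 rises (10.5%, against 6.81% of all genes) and 5 falls (26.3%, against 7.79%) among 19. With day 18, 36 or 40 left out, 1, 3 or 3 members were called. Psg17, a pregnancy-specific glycoprotein, fell from 102, 66 and 30 to 1, 2 and 1 (adjusted p = 0.00220). The adipocyte list had 0 rises and 2 falls among 6, and the cartilage and bone list 0 rises and 3 falls among 8. Those falls were 33.3% and 37.5%, against 7.79% of all genes. Without day 18 or 40 these lists had 1 called member each. The part of such cells in the other results was not tested.

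CiPSC levels were then set beside the genes called in the late days. Of the 1263 genes that fell, 796 (63.0%) had a CiPSC mean at or below the nearest late day, 249 lay between the groups and 218 (17.3%) lay on the early side. Of the 1104 that rose, 360 (32.6%) were at or past the late days in CiPSC, 205 between and 539 (48.8%) on the early side. The difference between those shares was not tested, since genes are not independent. All 3 pluripotency factors, all 6 other pluripotency genes and all 4 2-cell-like genes that rose were at or past the late days in CiPSC.

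**Figure D4:**
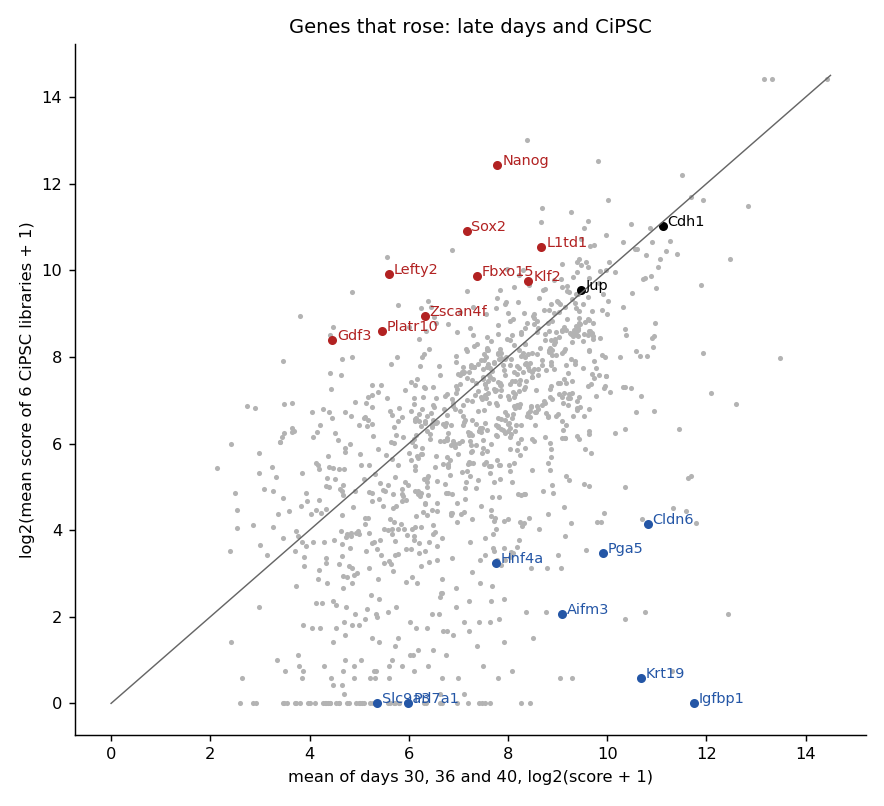
The 1104 genes that rose, with the mean log2(score + 1) of days 30, 36 and 40 on the x axis and the log2 of the mean CiPSC score + 1 (6 libraries) on the y axis; the line marks equality. Labelled genes were chosen after their values were seen: Nanog and Sox2 lie above the line, Cdh1 and Jup near it, and Igfbp1, Aifm3 and Cldn6 far below it.

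Day 30 stood at different points for different groups. On a scale with 0 at the early mean and 1 at the mean of days 36 and 40 (log2), day 30 had a median position of 1.03 over the 1104 risers and 1.0 over the 1263 fallers. For the 3 pluripotency factors that rose it was 0.41, with Sox2 at 0.32, Nanog at 0.41 and Klf2 at 0.47, and for the 3 primed epiblast risers 0.38. The 25 epithelial risers had a median of 1.05 and the 9 interferon risers 1.10. Among fallers, the median was 1.51 for the 14 ERK feedback genes and 1.63 for the 8 cholesterol genes, positions past the later days. Genes were called for a small spread among days 30, 36 and 40, which by itself brings the position of day 30 near 1, so these positions are a description. Day 30 is 1 library and its position has no error.

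Whether these changes also took place without BrdU was tested by setting the late minus early change of the full course against that of the course without BrdU, over 12 libraries. Of 16308 genes tested, 1761 (10.8%) differed, 859 (5.27%) with a higher change in the full course and 902 (5.53%) with a lower one. The count was 1011 or 1038 without day 18 or 40 of the course without BrdU, and 1172, 1139 or 1140 without day 18, 36 or 40 of the full course. Nanog had 2, 6 and 1 on days 12, 18 and 22 without BrdU and 4, 0 and 0 on days 30, 36 and 40, so the difference was 6.65 (SE 1.46, adjusted p = 0.0143). Cdh1 had 72, 356 and 620 and then 160, 74 and 66, a difference of 3.51 (SE 0.94, adjusted p = 0.0347). That call was lost without 9 of the 12 libraries in turn (adjusted p up to 0.0867). Sox2 had 1, 3 and 5 and then 9, 4 and 10, and its difference of 4.99 (adjusted p = 0.0674) did not pass, but did without day 30 of the full course (adjusted p = 0.00101). Zfp42 was at 0 on all 6 days without BrdU, and its difference of 2.20 (adjusted p = 0.134) passed only without day 22 of the full course (adjusted p = 0.0364).

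Among epithelial genes 21 of 39 had a higher change in the full course and 0 a lower one. Over all genes tested 5.27% had a higher and 5.53% a lower change, the shares to set beside each list here. The median change of the epithelial genes was -1.12 without BrdU. Crb3 differed by 4.57 (adjusted p = 0.00566) and Tjp3 by 5.24 (adjusted p = 0.00515). Mitosis genes showed 18 higher differences among 34 and 0 lower, with a median change of -2.20 without BrdU, although 0 of them passed within the full course. In the glycolysis list 10 of 25 differed upward and 1 downward, and Pdk1 differed by 2.71 (adjusted p = 0.0159). Of 31 visceral endoderm genes 7 differed upward and 2 downward, the latter near the 5.53% of all genes. Pga5 was at 0 on all 6 days without BrdU, and the difference for Cited1, a coactivator of visceral endoderm chosen after its values were seen, was 3.37 (adjusted p = 0.000788).

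ERK feedback genes had 1 higher and 3 lower differences among 24, small counts to set beside 5.27% and 5.53% of all genes. Dusp6 in the course without BrdU had 576, 864 and 926 early and 193, 170 and 100 late, and its difference of -0.60 (SE 0.48, adjusted p = 0.450) did not pass. The median change of the list without BrdU was -1.52. Csf2rb had 118, 226 and 276 early and 0 on each late day without BrdU, and Mmp9 420, 782 and 1136 and then 15, 4 and 4. Their differences of 0.04 (adjusted p = 0.978) and 0.34 (adjusted p = 0.822) did not pass, which does not show that the changes are equal. Other lists had more lower differences, to set beside the same shares of all genes. Fibroblast and mesenchymal genes had 2 higher and 12 lower among 41, and homeobox cluster genes 0 and 8 among 31. Inflammatory secretion genes had 1 and 9 among 28, with a median change of -0.11 without BrdU. The transforming growth factor beta list had 3 and 7 among 30, and the kinase inhibitor and p53 list 0 and 10 among 28.

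Of the named genes with the largest differences, Cyp2s1, a cytochrome P450 of epithelia, had 12, 34 and 60 early and 352, 198 and 354 late in the full course, and 20, 82 and 197 early and 2, 1 and 1 late without BrdU (8.21, adjusted p = 0.000862). Tff1, a trefoil peptide of gastric mucosa, rose in the full course from 10, 5 and 6 to 42, 94 and 48, and had 72, 160 and 172 early and 6, 0 and 4 late without BrdU (8.20, adjusted p = 0.000566). Dsg1a (desmoglein 1) differed by 8.05 and Sis (sucrase-isomaltase) by 7.53. In the other direction, Mmp3 had 438, 1074 and 914 early and 1244, 3241 and 4224 late without BrdU, against its fall to 12, 6 and 11 in the full course (-6.38, adjusted p = 0.000400). Ptgds, a prostaglandin synthase, had scores of 0 or 1 on all 6 days of the full course and 66, 244 and 228 on the late days without BrdU (-7.28). Tmem252 and Gm17535 differed by -6.47 and -6.19.

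The promoter of Mmp3 is shown because the gene moved in opposite directions in the 2 courses. It covers chr9:7445572-7445821 on the plus strand (GRCm38.p6, 250 bases before the single RefSeq start), and capitals mark the AP-1 motif TGANTCA, which reads the same on both strands and begins 46 bases before the start.
Mmp3: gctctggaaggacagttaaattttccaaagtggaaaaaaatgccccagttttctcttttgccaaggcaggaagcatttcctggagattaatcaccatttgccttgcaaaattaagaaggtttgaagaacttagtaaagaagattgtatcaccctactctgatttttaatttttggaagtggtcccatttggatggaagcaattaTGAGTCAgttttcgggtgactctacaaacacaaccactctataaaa
The motif is in 6.75% of all windows. Of 24 AP-1, TEAD and RUNX genes and YAP targets, 2 rose (Ctgf and Ajuba) and 3 fell (Fosl1, Tead2 and Runx2), shares of 8.33% and 12.5% that are near those of all genes (6.81% and 7.79%). Without day 18 or 40 the list had 3 or 2 called members in place of 5.

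**Figure D5:**
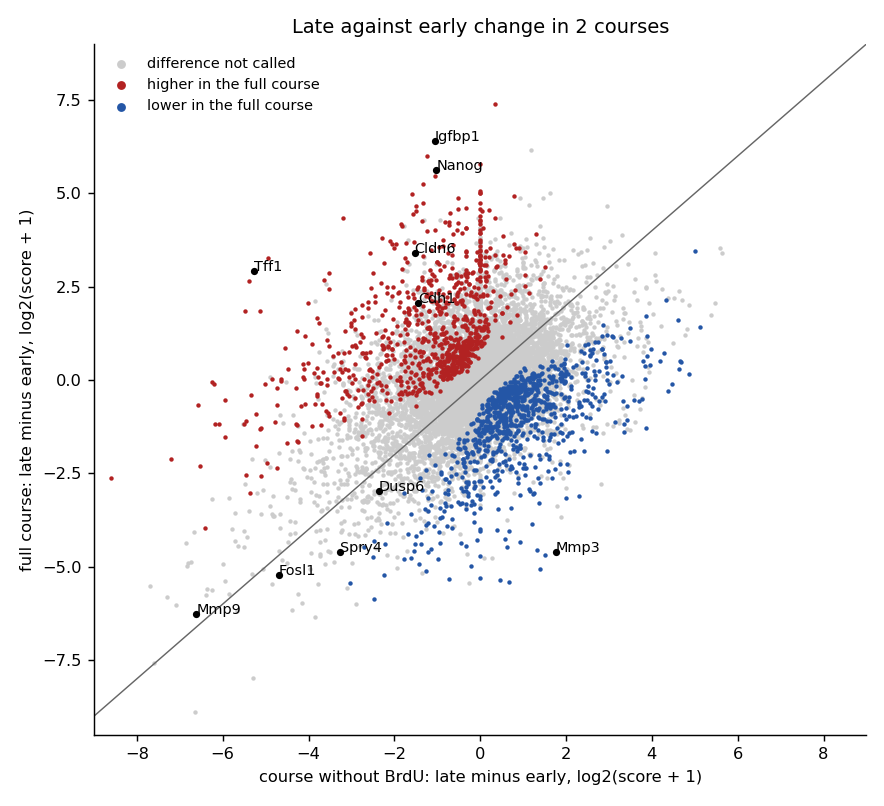
Late minus early change without BrdU (x axis) and in the full course (y axis), both in log2(score + 1), for each gene tested in both fits; red and blue mark called differences and the line marks equal changes. Labelled genes were chosen after their values were seen: Nanog and Igfbp1 lie high above the line, Mmp9 and Fosl1 lie near the line, and Mmp3 lies far below it.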

How the data were processed

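Total RNA was extracted with TRIzol and sequenced from TruSeq libraries on an Illumina NextSeq, per the labels' protocols. Bowtie2, RSEM, bcl2fastq and the build mm10 are named, without versions, in the submitters' processing notes. The normalization and the annotation are not given in the sources used here. The values deposited by the authors are treated as a score: the table is named CPM, but library totals lie between 4143561 and 4162600 and share 1 distribution, so no count test was possible and depth is unknown. In the 6 libraries compared, 5.59 to 6.82% of genes were at 0.

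Genes with a mean score of at least 1 were tested on log2(score + 1) with limma 3.58.1 in R 4.3.3 (eBayes with an intensity trend), with Benjamini-Hochberg adjustment over all genes tested. The course difference is the interaction of course and stage over 12 libraries. An exact permutation test of 3 against 3 cannot go below p = 0.1. On simulated data the late against early fit called 63 of 100 genes changed by 2 on the log2 scale and 86 of 100 changed by 4, with 8 false calls among 16079 genes. The course difference fit called 70 and 94 of 100, with 7 false calls among 16158. The simulated noise was independent between libraries and held no change from day to day. These counts therefore do not give the error rate for the real days.

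The days compared and the 35 gene lists were chosen with earlier results of these data known. Genes named are the 4 markers, the 12 largest rises and falls without overlap, up to 4 called members of each list by adjusted p, the 4 largest course differences each way, and pluripotency and endoderm transcription factors whether called or not. List members named only to complete a count, and any other gene, were chosen after their values were seen. Gene positions are from GENCODE M21 (mm10). In the 250 bases before 32851 RefSeq starts, 13 motifs were searched. For each promoter shown, the motifs marked were picked from these, and matches to the others are left unmarked. Alternatives were another pseudocount, other filters, a fit over both courses, no intensity trend, a minimum change, days as blocks and leaving out each library.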

Additional observations from a re-analysis of the deposited data

Results flagged for a closer look

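The change from days 12 to 22 to days 30 to 40 differed between the full course and the course without BrdU for 1761 genes, by the interaction term of limma. Of the genes named, the change was higher in the full course for Nanog by 6.65, Cdh1 by 3.51, Cyp2s1 by 8.21, Dsg1a by 8.05, Sis by 7.53 and Tff1 by 8.20, all on the log2(score + 1) scale. It was lower for Mmp3 (-6.38), Ptgds (-7.28), Tmem252 (-6.47) and Gm17535 (-6.19). Each course has 1 library a day, so a difference between courses cannot be told apart from a difference between 2 cultures. Dsg1a did not pass within the full course, where it had 30, 0 and 0 on the early days and 16, 16 and 26 on the late days. Without BrdU it had 44, 46 and 34 and then 0 on each late day. The call of Gm17535 was lost without day 18 of either course (adjusted p = 0.0509 and 0.0566).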

How the results depend on the processing

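The number of genes called between the late and early days was 1928 to 3186 under the other pseudocount, the other filters, the fit over both courses and the fit without an intensity trend, against 2367, and 1897 of the 2367 changed by at least 1 on the log2 scale. Leaving out each day gave 892 to 2281 genes, with 405 to 1103 higher and 473 to 1178 lower. The lowest counts came without day 18, 36 or 40. Every fit that left out a day, whichever day it was, had fewer libraries than the main fit. For the course difference, leaving out each library gave 1011 to 2239 genes, with 492 to 1037 higher and 514 to 1202 lower. With the day as a replicate block, the course difference called 2163 genes, 1092 higher and 1071 lower. Deviations of same-day libraries from their group means correlated at 0.19, 0.08 and 0.20 on days 12, 18 and 22 and at 0.06, 0.09 and -0.003 on days 30, 36 and 40, so the days are not shown to pair the libraries. For named genes, 184 of the alternative values between late and early days no longer passed and 2 newly passed, while 1253 kept their call. For course differences these numbers were 11, 2 and 179. No value changed direction. Depth is unknown, so its limits cannot be given, and genes at the ceiling of 21988 cannot show a rise.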
